A study of Drosophila melanogaster with 28 samples.

Results

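Whole Drosophila melanogaster embryos are described here through 6 libraries, the 3 labelled ez731 (R1, R2 and R3) and the 3 labelled w1118 (R1, R2 and R3), all at 16-18 h of development. They were chosen by the names of their columns in the count table of that age, and are 6 of its 16 libraries and of 28 in the whole series. The names and the deposited tables disagree about the mutant: the authors' table of differential expression for SppsG8810 can be rebuilt from the ez731-labelled columns. The libraries are therefore called by their column label throughout, and no direction given here is assigned to a mutation of E(z) or of Spps.

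Polycomb proteins keep developmental genes silent in cells where they should not be expressed. E(z) is the enzyme of Polycomb repressive complex 2 that places the H3K27me3 mark on histones, and Psc belongs to Polycomb repressive complex 1, which binds and compacts marked chromatin. Spps is a zinc finger protein that binds DNA at Polycomb response elements and helps to bring these complexes to their targets, among them the Hox genes.

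The label ez731 stands, per the study's methods, for an E(z) allele on a chromosome that also carries an FRT insertion, in a stock mutant for w and kept over the balancer TM6C, but whether the libraries so labelled came from that stock is in doubt. The other mutant in question, SppsG8810, is an EP transposon insertion that carries a w+ eye colour marker, also kept over TM6C. The control libraries came from w1118, a stock with a deletion in the eye pigment transporter gene w. For the mutants, eggs of flies heterozygous for a mutation and a GFP-marked balancer were collected and aged. Mutant embryos were then picked by hand by their morphology and the absence of GFP. The study's methods do not describe this sorting for w1118. A library is a pool of whole embryos of both sexes, so fewer cells of a type and less RNA per cell cannot be told apart. The study calls the 3 libraries of a genotype biological replicates, while the labels do not say whether they came from separate collections; p-values measure the spread between these libraries.

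Totals of 17940038 to 20824300 counts in the ez731-labelled libraries and of 19901374 to 21803022 in w1118 were assigned to genes, with 6.99 to 7.43% of counts in the 10 most abundant genes of a library. Levels are CPM (counts as a share of the library, scaled by TMM). Each change is the log2 fold of ez731 over w1118, with its SE, from the quasi-likelihood test of edgeR, with p-values adjusted by the Benjamini-Hochberg method over all genes tested. No molecular identifiers are mentioned for these libraries, and intervals drawn from counts cover counting error only. Markers of embryonic muscle, neurons, glia, trachea and hemocytes were all present in the 6 libraries, with muscle markers summing to 36300 to 40400 CPM in the ez731-labelled libraries and 36500 to 38200 CPM in w1118. A principal component analysis placed the groups apart on its first axis (69.5% of the variance), while its second axis (19.5%) spread the ez731-labelled libraries from 25.6 (R1) through -5.01 (R2) to -21.7 (R3), while w1118 lay between -4.51 and 4.7.

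The column labels were set against the deposited tables through the mean normalised count that DESeq2 writes. Of 364 sets of 2 or 3 mutant columns combined with w1118, the ez731-labelled R1 to R3 gave the mean of the SppsG8810 table for 10685 of 10685 genes with a mean count above 10, within 0.1%. The columns named SppsG8810 deviated from that table by a median of 8.95%. The table named ez731 was matched instead by psce22 R1, psce22 R2 and psch27 R1, and the ez731-labelled columns deviated from it by a median of 14%. Labels of columns and tables thus cannot both hold, and which of them is at fault was not tested.

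Neither candidate gene differed beyond the threshold between the groups. E(z) (3L:10634575-10638130, minus strand, dm6) was at 21.7, 21.1 and 20.2 CPM in the ez731-labelled libraries, against 24.8, 23.4 and 22.3 CPM in w1118. Every ez731-labelled library was thus below every w1118 library, by a small margin (log2 change -0.16 ± 0.07, adjusted p = 0.09; without R1 -0.19, adjusted p = 0.074). Spps (3R:24223445-24226934, minus strand) was at 14.6, 13.8 and 13.2 CPM, against 14.8, 14.3 and 13.9 CPM in w1118. Its groups overlapped, with a change of -0.05 ± 0.08 (adjusted p = 0.68) with all libraries and of -0.09 (adjusted p = 0.44) without R1. Psc (2R:12965997-12980994, minus strand) was at 26.8, 29.3 and 25.0 CPM, against 23.8, 27.2 and 30.5 CPM in w1118, with a change of -0.01 ± 0.10 (adjusted p = 0.95) whose sign turned under other settings.

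**Figure D1:**
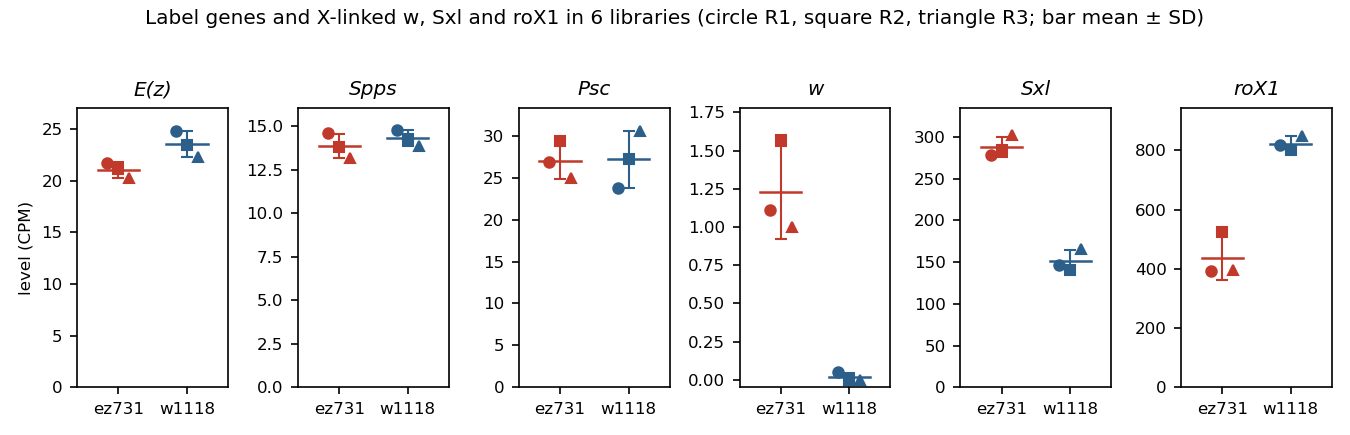
Levels (CPM, linear axis) of E(z), Spps, Psc, w, Sxl and roX1 in the 3 ez731-labelled libraries (red, left) and the 3 w1118 libraries (blue, right), with mean and SD. E(z), Spps and Psc differ little, w is between 0.999 and 1.57 CPM in the ez731-labelled libraries and at most 0.0492 CPM in w1118, and Sxl is higher and roX1 lower in the ez731-labelled libraries.

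The gene w separated the groups. It was at 1.11, 1.57 and 0.999 CPM in the ez731-labelled libraries, against 0.0492, 0 and 0 CPM in w1118, which held 70 reads and 1 read in all (ratio 73.8, 95% exact binomial interval 12.8 to 2950; adjusted p = 0.00031). Over all 16 libraries of the table, scaled together, w was at 1.02 to 1.61 CPM in ez731-labelled libraries, 12.9 to 23.3 CPM in those labelled SppsG8810, 0.383 to 0.655 CPM in psce22 and at most 0.0509 CPM in w1118. Within psch27, R1 was at 0.435 CPM while R2 and R3 were at 10.5 and 13.3 CPM. E(z) was lowest in the 3 columns that rebuild the table named ez731, at 14.2 to 15.7 CPM, against 20.8 to 22.1 CPM in the columns labelled ez731. Psc was at 318 to 342 CPM in the columns labelled SppsG8810 and at 25.6 to 30 CPM in those labelled ez731. Which flies these columns came from was not tested.

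Some transcripts of the sex and dosage compensation genes also separated the groups. Sxl, the switch gene of female development, was at 279, 284 and 302 CPM in the ez731-labelled libraries, against 147, 141 and 166 CPM in w1118 (0.93 ± 0.07, adjusted p = 6.3e-05). The male-specific dosage compensation RNAs went the other way. roX1 was at 391, 524 and 397 CPM, against 816, 800 and 849 CPM in w1118 (-0.91 ± 0.11, adjusted p = 0.00064), and roX2 fell by 0.73 ± 0.10 (adjusted p = 0.00087). WDY, the 1 tested gene on the Y chromosome, was named after its values were seen: it was at 1.33, 1.78 and 0.8 CPM, against 0.541, 0.673 and 0.632 CPM in w1118 (adjusted p = 0.035). In the 4 w1118 libraries at 14-16 h, counted in another table, Sxl was at 423 to 474 CPM and roX1 at 467 to 690 CPM. Of 12 dosage compensation and sex genes tested, 2 were higher and 4 lower, and 3 and 4 without R1. Of all genes 18.8% were higher and 19.8% lower, and 22.1 and 23.1% without R1. The share of each sex in the pools and the part of embryo age were not tested. On the X chromosome 39.9% of 1716 tested genes passed, against 36.2 to 39.6% on the arms 2L, 2R, 3L and 3R. The X calls leaned to rises, with 394 genes higher and 290 lower (16.9%). On those other arms 16.6 to 19.4% of genes were higher and 18.5 to 22.3% lower. The median change without R1 was 0.02 on the X and -0.042 to -0.016 on those arms. The cause of this difference was not tested.

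Libraries within the ez731 label did not resemble each other evenly. R1 held 93 genes of at least 5 CPM that were more than 4-fold above both other libraries of its group, R3 held 32 and R2 held 0, against 4 in w1118 R1 and 0 in w1118 R2 and R3. Yolk proteins, made by the adult female fat body and follicle cells, were in this set: Yp1, Yp2 and Yp3 together were at 1050 (R1), 89.8 (R2) and 79.5 CPM (R3), against 9.6, 5.03 and 4.77 CPM in w1118. R2 and R3 were thus still above w1118, and without R1 each of the 3 genes passed (Yp1 4.99, Yp2 3.79 and Yp3 2.94, adjusted p = 0.0012, 0.022 and 6.1e-07), whereas with all libraries Yp1 alone did. Chorion and vitelline membrane genes also peaked in R1, with the eggshell list summing to 296, 25.0 and 20.9 CPM, against 32.5, 10.8 and 7.88 CPM in w1118. Of its 13 tested genes 1 was lower and edgeR called 0 higher (3 at an unadjusted p under 0.05, and 4 of 17 by DESeq2), and without R1 3 were higher and 1 lower. Eye transcripts did too: ninaE, the main rhodopsin of the adult eye, was at 153, 13.1 and 10.3 CPM, against 0.787, 1.17 and 0.584 CPM in w1118 (without R1 3.77, adjusted p = 4.8e-06). Tsf1, the iron carrier of hemolymph, was at 44.4, 3.15 and 1.6 CPM, against 0.0984, 0.0897 and 0 CPM in w1118.

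Digestive enzymes did not share that order. Their list summed to 2210 (R1), 2620 (R2) and 3510 CPM (R3) in the ez731-labelled libraries, against 1970, 1780 and 1620 CPM in w1118, so that R3, not R1, was highest in gut transcripts. The Osiris genes, a family of epidermal and tracheal membrane proteins made in a burst when cuticle is laid down, were highest in R1 and lowest in R3, at 2850, 890 and 318 CPM, against 500, 1010 and 1420 CPM in w1118. In the 4 w1118 libraries at 14-16 h, counted in another table, they summed to 29700 to 35900 CPM. Osi6, the most abundant in R1, was at 962, 158 and 21.2 CPM, against 3.74, 7 and 8.61 CPM in w1118, and its change of 5.88 ± 1.78 did not pass (adjusted p = 0.065). Of 12 Osiris genes tested of 19, edgeR called 0, though 2 were higher at an unadjusted p under 0.05 and 5 of 16 were higher by DESeq2. The median change of the 12 was 0.48 with all libraries and -0.40 without R1. The part of carried-over adult RNA or of embryo age in the results below was not tested, and list counts are given with all libraries and without R1.

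**Figure D2:**
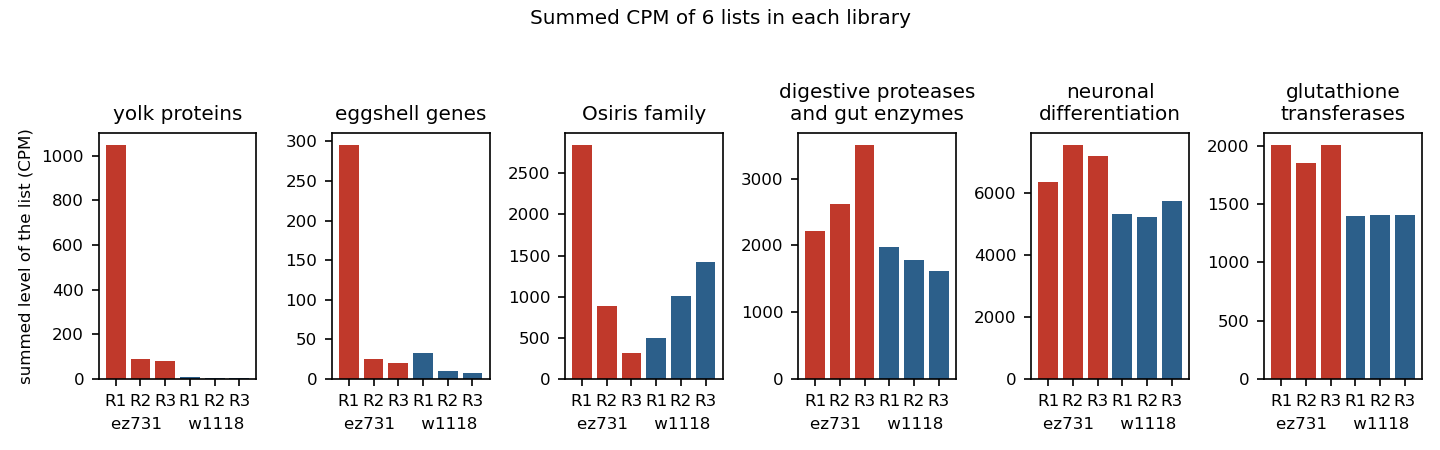
Summed level (CPM, linear axis from 0) of 6 gene lists in each library, ez731-labelled R1 to R3 in red and w1118 R1 to R3 in blue. Yolk, eggshell and Osiris sums peak in ez731-labelled R1, gut enzymes peak in R3, and the sums of neuronal differentiation genes and of glutathione transferases are higher in each ez731-labelled library than in any w1118 library.

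With all 6 libraries, 4130 of 10696 genes tested passed an adjusted p of 0.05 (38.6%), 2009 higher (18.8%) and 2121 lower (19.8%) in the ez731-labelled libraries. Changes over 2-fold were more often rises, with 542 higher and 323 lower. Every ez731-labelled library was above every w1118 library for 2686 genes (25.1%) and below for 2977 genes (27.8%). Without R1, 4883 of 10798 genes passed (45.2%), 2391 higher (22.1%) and 2492 lower (23.1%). The fits shared 3893 genes called in the same direction, 1921 higher and 1972 lower. A further 237 genes were called only with all libraries and 960 only without R1. Leaving out w1118 R2 moved the count most, to 2681 genes. The median change of all genes was -0.01 and -0.02 in the fits with and without R1.

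**Figure D3:**
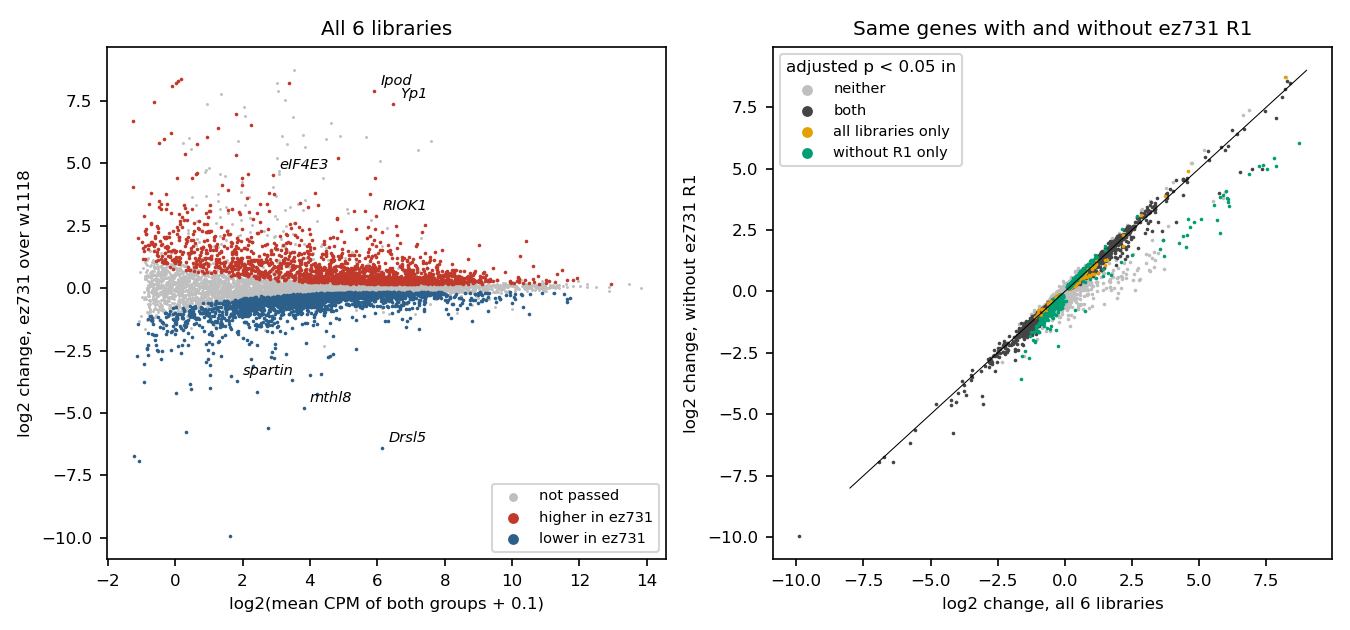
Left, log2 change of ez731 over w1118 against the log2 of the mean CPM of both groups plus 0.1, for 10696 genes, with 2009 called higher (red) and 2121 called lower (blue). Right, log2 change without ez731-labelled R1 against that with all 6 libraries; most genes lie on the diagonal, and a branch of genes high in R1 lies below it, with 960 genes called only without R1 (green).

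The 14 largest rises that stood in both fits held genes of the gut, of detoxification and of defence. Ipod, which encodes a binding partner of the methyltransferase Dnmt2, was at 222, 107 and 30.3 CPM in the ez731-labelled libraries, against 0.246, 0.628 and 0.632 CPM in w1118 (7.87 ± 1.25, adjusted p = 0.012). Its level varied widely among the ez731-labelled libraries, but the lowest of them was far above w1118. eIF4E3, a cap-binding translation initiation factor, varied far less, at 13.5, 14.4 and 14.8 CPM, against 0.787, 0.448 and 0.632 CPM in w1118 (4.51 ± 0.18, adjusted p = 1.9e-06). RIOK1, an atypical kinase that acts in maturation of the small ribosomal subunit, was at 87.6, 112 and 130 CPM, against 16.2, 14.4 and 14.1 CPM in w1118 (2.88 ± 0.15, adjusted p = 3.5e-05). The groups were far apart for both genes relative to their spread.

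Jon25Biii, a secreted serine protease of the gut, was at 70.5, 114 and 121 CPM in the ez731-labelled libraries, against 7.43, 8.43 and 6.47 CPM in w1118 (3.77 ± 0.26, adjusted p = 0.00034). The maltases Mal-A6 and Mal-A8 rose by 3.42 and 3.35, Gnmt, which uses S-adenosylmethionine to methylate glycine, by 3.31, and ninaD, a scavenger receptor for carotenoid uptake, by 4.40. Gpo3, a glycerol-3-phosphate dehydrogenase, rose by 3.92, the P450 gene Cyp6w1 by 3.18 and the glutathione transferase gene GstD7 by 3.05. Yp1, the antifungal peptide gene Drs and the immune-induced peptide gene IM2 rose by 7.35, 6.52 and 4.14, and by 4.99, 4.86 and 2.83 without R1, the library with their highest level. Calls for Ipod, Yp1, Drs, Mal-A6, GstD7 and IM2 were lost when any 1 of the w1118 libraries was left out, with adjusted p-values of 0.054 to 0.14.

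Among the 14 largest falls, Drsl5, a gene of the Drosomycin family of antifungal peptides, stood first. It was at 2.76, 1.21 and 1.05 CPM in the ez731-labelled libraries, against 136, 130 and 153 CPM in w1118 (-6.40 ± 0.30, adjusted p = 9.6e-05). Drs of the same family rose, so the family did not move as 1 block. mthl8, a receptor of the Methuselah family, was at 0.608, 1.89 and 0.4 CPM, against 24.7, 26.5 and 29.5 CPM in w1118 (-4.80 ± 0.47, adjusted p = 0.0014). spartin, the fly counterpart of a human spastic paraplegia gene, was at 0.663, 0.63 and 0.15 CPM, against 6.98, 5.34 and 6.96 CPM in w1118 (-3.74 ± 0.37, adjusted p = 0.00025). FucTC, a fucosyltransferase, was at 6.69, 7.66 and 6.9 CPM, against 48.3, 44.8 and 39.9 CPM in w1118 (-2.64 ± 0.10, adjusted p = 1e-06). In the 4 w1118 libraries at 14-16 h these 4 genes were also well above the ez731-labelled libraries, with Drsl5 at 35.7 to 48.5 CPM and mthl8 at 35.3 to 37.4 CPM.

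The other named falls ranged from -2.78 to -1.73. They were GILT3, a lysosomal thiol reductase (-2.78), dj-1beta, the fly counterpart of human PARK7 (-2.54), Iyd, an iodotyrosine deiodinase (-2.40), GstZ1, which acts in tyrosine breakdown (-2.22), and S2P, the protease that releases SREBP from membranes (-2.10). Marc, a mitochondrial amidoxime reductase (-1.99), phu (-1.92), the P450 gene Cyp4p2 (-1.78), Ada2a of the ATAC acetyltransferase complex (-1.76) and the deubiquitinase gene Uch (-1.73) followed. Ada2a overlaps Rpb4 on the same strand and was the 1 named gene of 27 with a position that does, so the reads of this pair may be shared. Counting by strand is not stated, and 8 more of the 27 overlap a gene on the other strand.

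**Figure D4:**
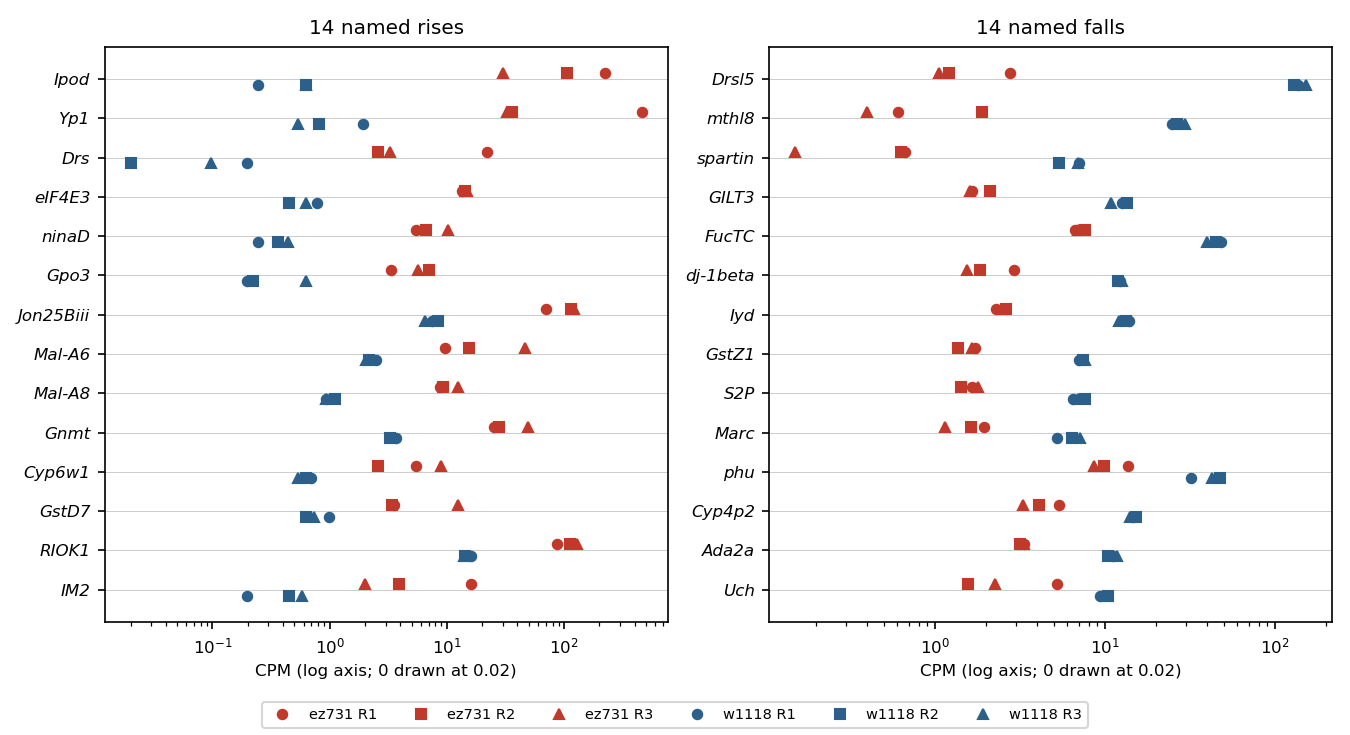
CPM (log axis) of the 14 named rises and the 14 named falls in ez731-labelled R1 to R3 (red) and w1118 R1 to R3 (blue); a level of 0 is drawn at 0.02. Red and blue points of a gene do not overlap, which the choice of genes required, and Yp1, Drs and IM2 are highest in ez731-labelled R1.

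Some genes of the Polycomb system passed, by mostly small changes. Of all genes 18.8% were higher and 19.8% lower with all libraries, and 22.1 and 23.1% without R1. Of 8 genes of Polycomb repressive complex 2 tested, 1 was higher and 2 lower, with a median of -0.16, and 1 and 3 without R1, so that the share called was near that of all genes. Su(z)12, a core subunit needed for methyltransferase activity, was at 29.2, 26.8 and 26.5 CPM in the ez731-labelled libraries, against 36.6, 36.7 and 37.3 CPM in w1118 (-0.43 ± 0.06, adjusted p = 0.0012). escl, a copy of the core subunit gene esc, fell by 1.02 ± 0.22 (adjusted p = 0.0067), and Jarid2, an accessory subunit, rose by 0.24 ± 0.05 (adjusted p = 0.0062). Among 9 genes of complex 1, Kdm2 was higher and ph-p lower (0.22 and -0.34) in both fits. Of 13 recruiters and other Polycomb genes, 3 were lower (Trl, Sfmbt and crm), 0 were higher by edgeR and by DESeq2, and 1 was higher at an unadjusted p under 0.05; without R1 1 was higher and 4 lower. Trl, the GAGA factor, was at 30.1, 31.6 and 32.8 CPM, against 48.2, 47.5 and 44.9 CPM in w1118 (-0.57 ± 0.06, adjusted p = 0.00027). Trithorax group genes, which counter Polycomb, gave 3 higher and 1 lower of 18, with the acetyltransferase gene nej at 0.51 and the bromodomain gene fs(1)h at 0.47, and without R1 3 higher and 5 lower. With all libraries the other rise was sls, also counted among the muscle genes below. The fall was Trl, already counted among the recruiters.

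Of the 8 Hox genes, the main targets of Polycomb, 2 were lower with and without R1, against 19.8 and 23.1% of all genes, and 0 were higher by edgeR, by DESeq2 and at an unadjusted p under 0.05. The genes that fell pattern the head: lab was at 18.2, 19.2 and 19.6 CPM in the ez731-labelled libraries, against 26.5, 30.0 and 26.3 CPM in w1118 (-0.54 ± 0.08, adjusted p = 0.00097), and Dfd fell by 0.49 ± 0.07 (adjusted p = 0.0015). Ubx was at 64.9, 70.3 and 70.9 CPM, against 64.5, 69.1 and 77.5 CPM in w1118, and did not pass (adjusted p = 0.75). Levels of abd-A and Abd-B overlapped or nearly met between the groups, with changes of 0.03 and -0.08 that did not pass.

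Other developmental regulators were called lower more often than higher. Of all genes 19.8% were lower and 18.8% higher with all libraries, and 23.1 and 22.1% without R1. Of 27 segmentation and head gap genes 9 were lower and 1 higher with and without R1, with a median of -0.15 with all libraries. In this list 5 were lower without ez731-labelled R2, w1118 R1 or w1118 R2. drm, a zinc finger gene of the odd family, was at 107, 98.0 and 96.7 CPM, against 124, 132 and 128 CPM in w1118 (-0.35 ± 0.06, adjusted p = 0.0021), and odd and sob of the same family fell by 0.38 and 0.32. Of 66 homeobox, T-box and related regulators 15 were lower and 7 higher, and without R1 20 and 6. By DESeq2 14 of 67 were lower and 5 higher. With all libraries the share of this list called lower was thus near that of all genes. Higher calls numbered 2 without ez731-labelled R2 or without w1118 R2, 3 without w1118 R1 and 4 without ez731-labelled R3. GATAe, which specifies endoderm, was at 92.0, 88.7 and 84.1 CPM, against 126, 138 and 127 CPM in w1118 (-0.56 ± 0.06, adjusted p = 0.00025), and pnr and tup, regulators of dorsal and heart tissue, fell by 0.62 and 0.37. toy, a Pax6 gene of the eye and brain, went the other way, at 117, 124 and 109 CPM, against 41.2, 40.0 and 45.0 CPM in w1118 (1.47 ± 0.07, adjusted p = 5.5e-06). Its change was the largest called in that list. Tracheal genes gave 6 lower of 13, among them the claudin gene sinu (-0.40 ± 0.05, adjusted p = 0.0005) and rho (-0.45), with 3 lower without ez731-labelled R2 and 2 without w1118 R2 or R3. Without R1 6 were lower and 1 higher, while with all libraries 0 were higher by edgeR, by DESeq2 and at an unadjusted p under 0.05. Of the tracheal markers, trh and uif did not pass with all libraries (-0.02 and 0.08, adjusted p = 0.84 and 0.79). The marker btl was lower (-0.22, adjusted p = 0.041), but not without R1 (adjusted p = 0.07).

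Most tested genes of differentiated neurons were higher. Of 35 tested 22 were higher with all libraries and 27 without R1, against 18.8 and 22.1% of all genes, with medians of 0.37 and 0.44. None was lower by edgeR (0 of 35), by DESeq2 (0) or at an unadjusted p under 0.05 (0). Of the neuron markers, Syt1 and brp were higher in both fits and nSyb only without R1. The marker elav passed in neither fit, at 173, 174 and 162 CPM, against 156, 171 and 190 CPM in w1118 (-0.02 ± 0.08, adjusted p = 0.84). ple, the tyrosine hydroxylase of dopamine synthesis and of cuticle hardening, was at 84.4, 90.0 and 88.5 CPM, against 41.6, 34.7 and 35 CPM in w1118 (1.24 ± 0.08, adjusted p = 2.3e-05). The sodium channel gene para was at 191, 263 and 230 CPM, against 128, 123 and 136 CPM in w1118 (0.82 ± 0.11, adjusted p = 0.001). Syx1A, of the vesicle fusion machinery, was at 94.1, 118 and 106 CPM, against 65.1, 64.0 and 67.2 CPM in w1118 (0.70 ± 0.08, adjusted p = 0.0004), and the potassium channel gene Sh rose by 0.67 ± 0.12 (adjusted p = 0.0036). Leaving out 1 library at a time gave 16 to 27 higher, with 16 when ez731-labelled R2 was left out. The neuronal list summed to 5310, 5220 and 5750 CPM in w1118 at 16-18 h and to 4760 to 5360 CPM at 14-16 h. Single members differed more between these ages in w1118, and in both directions. ple was at 141 to 178 CPM at 14-16 h, above its level at 16-18 h. The receptor gene Rdl was at 73.8 to 103 CPM at 14-16 h, against 163 to 195 CPM at 16-18 h. The part of embryo age in the neuronal rises was not tested.

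Other lists of the nervous system lay nearer to the shares of all genes, which were 18.8% higher and 19.8% lower with all libraries and 22.1 and 23.1% without R1. Among 35 neuropeptide genes 8 were higher, and 12 without R1, with Orcokinin at 4.86, 4.99 and 5.10 CPM, against 1.87, 1.48 and 1.75 CPM in w1118 (1.55 ± 0.16, adjusted p = 0.00019); 0 were lower by edgeR and by DESeq2, and 1 at an unadjusted p under 0.05. Without w1118 R2 or R3, 5 were higher. Axon guidance genes gave 11 higher and 4 lower of 34 (12 and 4 without R1, and 6 higher without ez731-labelled R2, w1118 R1 or w1118 R2), with the adhesion gene Dscam4 at 0.79 ± 0.07 (adjusted p = 8.1e-05), while comm, which removes Robo from commissural axons, fell by 0.62 ± 0.07 (adjusted p = 0.00027). Of 14 glial genes 2 were higher and 4 lower, and 2 and 2 without R1: repo, the glial homeobox gene, was at 26.8, 28.5 and 25.0 CPM, against 38.3, 44.8 and 41.3 CPM in w1118 (-0.63 ± 0.08, adjusted p = 0.00056). Of 15 neuroblast genes 4 were higher and 3 lower, and 4 and 2 without R1, with insc, which orients neuroblast division, at -0.66 ± 0.07 (adjusted p = 0.00021).

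Among detoxification genes, more were called higher than lower in both fits, where 18.8 and 22.1% of all genes were higher. Of 70 cytochrome P450 genes tested of 81, 35 were higher and 7 lower with all libraries, and 38 higher and 6 lower of 71 without R1, with medians of 0.59 and 0.66; 4 were lower when any library other than ez731-labelled R1 or R3 was left out. Cyp6a8, a P450 of insecticide response, was at 125, 79.1 and 66.1 CPM, against 15.8, 15.8 and 17.7 CPM in w1118 (2.45 ± 0.27, adjusted p = 0.0021). Cyp304a1 went the other way, at 80.0, 76.1 and 62.6 CPM, against 216, 222 and 241 CPM in w1118 (-1.63 ± 0.10, adjusted p = 2e-05). Cyp6a23 rose by 0.79 ± 0.09 (adjusted p = 0.00028). Of 33 glutathione transferase genes tested of 35, 22 were higher and 2 lower, with a median of 0.44, and 22 and 3 of 34 without R1, and leaving out 1 library at a time gave 18 to 22 higher. GstE7 was at 50.8, 49.6 and 51.4 CPM, against 20.3, 20.9 and 19.9 CPM in w1118 (1.31 ± 0.06, adjusted p = 3.8e-06), and GstE3 rose by 1.52 ± 0.23 (adjusted p = 0.0059). GstE13 and GstZ1 were the members that fell, by 1.19 and 2.22. GstE7 (2R:18406924-18407688) and GstE3 (2R:18400713-18401467) lie in 1 cluster of related copies, whose reads the counting could divide between them.

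Part of the gut enzymes were higher, beside 18.8% of all genes with all libraries and 22.1% without R1. Of 48 digestive proteases and gut enzymes tested of 62, 24 were higher and 3 lower, 23 and 3 of 51 without R1, and 26 and 5 of 48 without R3, where the list was highest. The count of higher genes was 15 when w1118 R3 was left out. SPE had the smallest adjusted p of this list, at 49.2, 51.9 and 49.2 CPM, against 11.3, 9.15 and 10.3 CPM in w1118 (2.29 ± 0.08, adjusted p = 1e-06), but it encodes the protease that activates Spätzle in the Toll pathway and is not a digestive enzyme. tobi, an alpha-glucosidase gene under insulin and glucagon-like control, was at 25.1, 23.5 and 22.7 CPM, against 9.35, 9.82 and 8.71 CPM in w1118 (1.35 ± 0.08, adjusted p = 2e-05). Jon25Bii was at 3.21, 5.20 and 52.9 CPM, against 0.0984, 0.0897 and 0 CPM in w1118, and its call was lost without R1 (adjusted p = 0.049 and 0.051); it was chosen after its values were seen, as an example of R3.

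Fat body and defence genes were called in both directions, beside 18.8% higher and 19.8% lower of all genes. Of 15 fat body and head fat genes 8 were higher and 2 lower, and 11 and 2 without R1. FASN1, fatty acid synthase, was at 299, 302 and 342 CPM, against 148, 162 and 139 CPM in w1118 (1.07 ± 0.08, adjusted p = 4.8e-05), while bmm, the fat storage lipase, was at 49.0, 48.4 and 54.0 CPM, against 87.6, 85.7 and 76.7 CPM in w1118 (-0.72 ± 0.07, adjusted p = 0.00018). apolpp, the main lipoprotein of hemolymph, was at 1990, 2170 and 2000 CPM, against 962, 1060 and 1300 CPM in w1118 (0.89 ± 0.11, adjusted p = 0.00055). Of 26 immune genes tested of 52, 11 were higher and 4 lower, and 14 and 5 without R1, while their summed level overlapped between the groups, at 1640, 1450 and 1430 CPM in the ez731-labelled libraries, against 1450, 1540 and 1560 CPM in w1118. Rel, the NF-kB factor of the Imd pathway, was at 125, 130 and 150 CPM, against 74.6, 72.7 and 73.6 CPM in w1118 (0.87 ± 0.07, adjusted p = 7.7e-05), and GNBP3, a receptor for fungal glucans, rose by 2.04 ± 0.18 (adjusted p = 9e-05). PPO2, a prophenoloxidase of crystal cells, fell by 0.83 ± 0.14 (adjusted p = 0.0039).

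Of 33 adult photoreceptor genes tested, 11 were higher and 1 lower with all libraries, and 18 and 2 without R1, against 18.8 and 22.1% of all genes higher; without w1118 R2, 7 were higher. The genes called higher in both fits include hdc (headcase), which is not a photoreceptor gene. It was at 211, 252 and 235 CPM, against 176, 182 and 215 CPM in w1118. This list held genes at a steady level in all libraries of a group and genes with a peak in R1. rdgB, a phosphatidylinositol transfer protein gene, was at 108, 120 and 109 CPM, against 71.2, 73.9 and 73.2 CPM in w1118 (0.63 ± 0.06, adjusted p = 0.00013). Arr2, the arrestin that ends the light response, was at 63.8, 6.98 and 7.70 CPM, against 2.21, 2.24 and 2.24 CPM in w1118, and passed only without R1 (1.72, adjusted p = 2.2e-05).

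Cuticle genes were called both ways, beside 18.8% higher and 19.8% lower of all genes. Of 82 tested of 90, 24 were higher and 28 lower, and 28 and 24 of 83 without R1, with medians of -0.13 and -0.15; without w1118 R2, 14 were higher. Edg91 was at 62.4, 77.6 and 83.4 CPM, against 33.1, 28.2 and 30.4 CPM in w1118 (1.29 ± 0.11, adjusted p = 0.00013). Cpr67Fa2 was at 65.6, 79.7 and 77.1 CPM, against 131, 128 and 135 CPM in w1118 (-0.82 ± 0.08, adjusted p = 0.00013). Among genes of chitin and of cuticle hardening, 7 were higher and 2 lower of 29, and 11 and 3 without R1: the chitinase gene Cht5 was at 72.5, 91.0 and 79.2 CPM, against 29.9, 27.7 and 24.5 CPM in w1118 (1.56 ± 0.10, adjusted p = 3.1e-05), and the pigment gene y rose by 0.63 ± 0.08 (adjusted p = 0.00048).

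Of 27 muscle genes 7 were higher and 3 lower, beside 18.8 and 19.8% of all genes. Without R1 9 were higher and 1 lower, and without ez731-labelled R2 or w1118 R2 3 were higher. Act87E, a muscle actin of the late embryo and larva, was at 938, 940 and 943 CPM, against 1890, 1930 and 2010 CPM in w1118 (-1.05 ± 0.05, adjusted p = 8.1e-06), which was the largest fall of the list. Zasp52 and sls, of the Z-disc, rose by 0.43 and 0.38, and bt, a titin-like kinase gene, by 0.33. The myosin gene Mhc was at 11300, 12600 and 11900 CPM, against 10800, 11000 and 10100 CPM in w1118, and passed only without R1 (0.21, adjusted p = 0.017).

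The respiratory chain genes that passed were all lower, by small steps, but 44 of 67 did not pass. Of 67 tested of 81, 23 were lower, with a median of -0.14, and 16 without R1, beside 19.8 and 23.1% of all genes, so that without R1 the share was near that of all genes; 0 were higher by edgeR, by DESeq2 and at an unadjusted p under 0.05. ND-AGGG, of complex I, was at 47.1, 46.8 and 47.7 CPM, against 61.9, 56.5 and 61.2 CPM in w1118 (-0.34 ± 0.06, adjusted p = 0.0025), and ND-15 and ND-B17.2 of the same complex fell by 0.34 and 0.31. The count ranged from 8 to 27 when 1 library was left out, with 8 without w1118 R1, 9 without ez731-labelled R2, 11 without w1118 R2 and 12 without w1118 R3. Of 86 ribosomal protein genes 1 was higher and 6 lower, and 3 and 6 without R1, led by RpS5b (-0.64 ± 0.05, adjusted p = 7.3e-05), a copy of RpS5a. Of 30 cell cycle genes 1 was higher and 3 lower, and 1 and 10 without R1: CycA, the mitotic cyclin, was at 35.5, 18.8 and 17.9 CPM, against 24.1, 25.5 and 26.9 CPM in w1118, and passed only without R1 (-0.48, adjusted p = 0.0012).

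**Figure D5:**
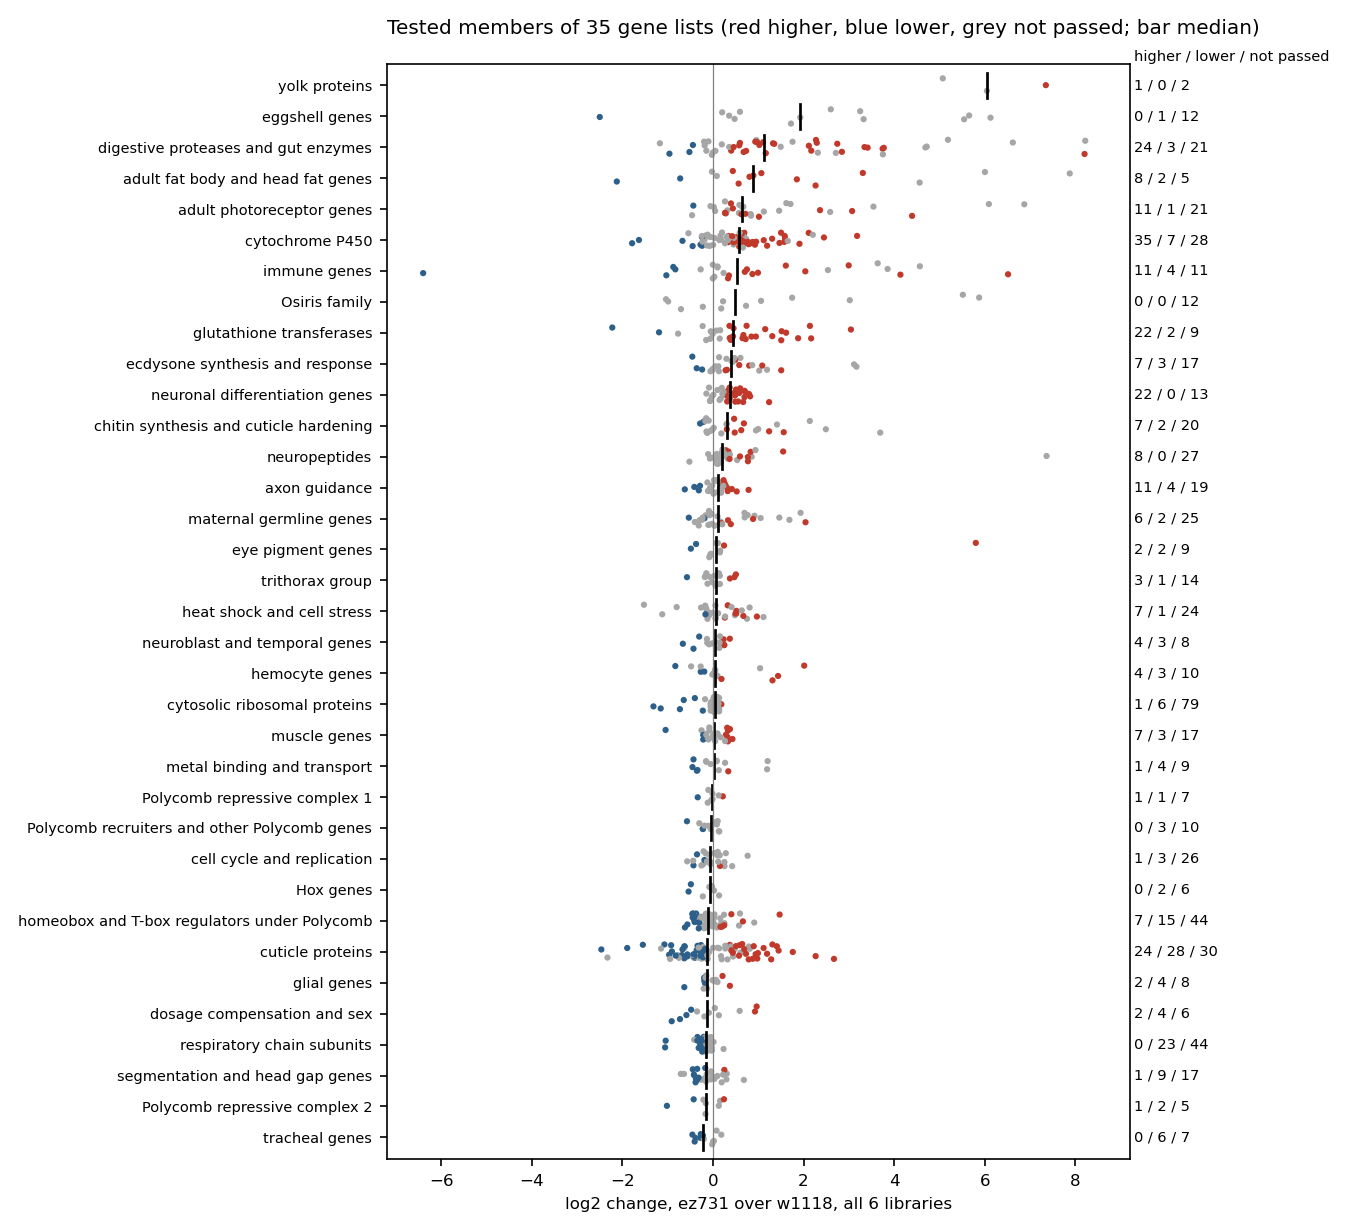
Log2 change of ez731 over w1118 (all 6 libraries) for every tested member of 35 gene lists, sorted by median (black bar), with members higher in red, lower in blue and not passed in grey, and the 3 counts at the right. Neuronal differentiation genes are 22 higher and 0 lower, respiratory chain genes 0 higher and 23 lower, and the 12 tested Osiris genes are all grey.

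The loci of the candidate genes were read for changes in neighbours. Of the 5 tested genes on each side of E(z), 1 was higher (Rbfox1, an RNA-binding splicing regulator, 0.33 ± 0.10, adjusted p = 0.035) and 1 lower (Adi1, of methionine salvage, -0.75 ± 0.12, adjusted p = 0.002). Without R1 6 of these 10 were called, with CG14153 also higher and hay, CG8009 and CG8003 also lower. Of the 5 on each side of Spps, 2 were higher and 3 lower, and without R1 cav was also lower. CG6204 was at 7.46, 6.98 and 6.80 CPM, against 15.8, 13.7 and 15.8 CPM in w1118 (-1.09 ± 0.10, adjusted p = 0.00013), and the adjacent jnj at 8.73, 8.66 and 7.60 CPM, against 14.7, 14.0 and 14.1 CPM in w1118 (-0.78 ± 0.10, adjusted p = 0.00052). beta-PheRS, a subunit of phenylalanyl-tRNA synthetase, fell by 0.39, while twin, a deadenylase, and mask rose by 0.20 and 0.22. With all libraries 38.6% of all genes were called, and without R1 45.2%.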

How the data were processed

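Whole-embryo RNA was sequenced, and the authors deposited raw read counts per gene, made with featureCounts on dm6 per the submitters' processing notes; the study's methods for short reads name STAR, without naming these libraries, and the strand setting of the counting is not given in the sources used here. The deposited DESeq2 tables hold a mean normalised signal, the authors' mean of counts divided by size factors, which was used to match columns to tables. Their fold changes and p-values were not used.

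Counts of the 6 libraries were filtered with filterByExpr, scaled by TMM and tested with the quasi-likelihood test of edgeR 4.0.16 (limma 3.58.1, R 4.3.3) with group as the only term and Benjamini-Hochberg adjustment at 0.05, with all libraries and without ez731-labelled R1. DESeq2 1.42.0 was an alternative, beside RLE size factors, no filter, all 16 libraries in the fit, a replicate block and each library left out. Lists were described in Python 3.11.15 with pandas 2.3.3, numpy 2.4.6 and matplotlib 3.10.9. The fit was tested on simulated data, in which far fewer genes were changed than were called here. The share of false calls there was somewhat above the nominal rate, so counts of calls may be liberal. That share cannot be carried over to the counts given here, since it depends on how many genes truly change. Libraries of a group differed by more than sampling noise (chi-square per degree of freedom 6.9 to 33.6), so none was counted as a duplicate. Of 17753 genes in the table, 17626 had a position on dm6.

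Named genes were E(z), Spps and Psc; the 14 largest rises and 14 largest falls past the threshold in both fits, with at least 5 CPM in the higher group and no overlap between groups, passing over numbered symbols and RNA genes; up to 4 members of a list by adjusted p without R1 (for lists high in R1, by CPM there); and the 5 tested genes on each side of E(z) and Spps. Outside this rule, Ubx, abd-A, Abd-B, apolpp, Mhc, MtnA, pr, WDY and Jon25Bii were chosen after their values were seen. Members and lists were chosen with earlier results of these data known.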

Additional observations from a re-analysis of the deposited data

How the results depend on the processing

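The count of 4130 genes was 4091 with RLE size factors, 4062 with no filter, 3755 with DESeq2 and 3290 with all libraries of the table in the fit. Leaving out 1 library gave 2681 (1312 higher, 1369 lower, without w1118 R2) to 4883 (2391 higher, 2492 lower, without ez731-labelled R1). The 4883 genes found without R1 became 3066 (1387 higher) with all libraries of the table in the fit. Same-numbered libraries did not deviate together (r = -0.247, 0.017 and -0.267 for numbers 1, 2 and 3). With so few libraries in a group, these values cannot tell whether same-numbered libraries shared a collection. With a replicate block 2983 genes passed (1502 higher, 1481 lower), 4544 without R1, and IM2 did not pass (adjusted p = 0.066). The change of Psc turned to 0.005 with RLE size factors and ranged from -0.099 to 0.079 when 1 library was left out. The adjusted p ranged from 0.074 to 0.39 for E(z) and from 0.44 to 0.93 for Spps over these settings. Of the named values, 284 kept their direction and side of the threshold, 31 no longer passed (Ipod, Yp1, Drs, Mal-A6, GstD7, IM2, Cyp4p2 and Uch) and 3 turned, all of Psc. The cause was not tested.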

Other observations

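Several lists not described above also held called genes, where 18.8% of all genes were higher and 19.8% lower, and 22.1 and 23.1% without R1. Of 32 heat shock and stress genes 7 were higher and 1 lower (7 and 3 of 33 without ez731-labelled R1, and 11 higher without w1118 R1), with the small heat shock gene Hsp67Bc at 78.9, 75.5 and 79.6 CPM in the ez731-labelled libraries, against 42.3, 35.5 and 41.5 CPM in w1118 (0.97 ± 0.08, adjusted p = 5.8e-05), and the constitutive chaperone gene Hsc70-4 at 2060, 1930 and 2100 CPM, against 1460, 1450 and 1400 CPM in w1118 (0.50 ± 0.06, adjusted p = 0.00038). Hsp68 and Hsp26 peaked in w1118 R1 and did not pass (adjusted p = 0.55 and 0.92). Hsp68 was at 5.91, 3.41 and 5.0 CPM, against 27.6, 2.42 and 1.17 CPM in w1118. Hsp26 was at 29.1, 7.61 and 9.0 CPM, against 38.2, 6.59 and 6.42 CPM in w1118. Of 27 ecdysone genes 7 were higher and 3 lower (8 and 2 without ez731-labelled R1, and 3 higher without ez731-labelled R2 or w1118 R2). nvd, which acts on cholesterol at the start of ecdysone synthesis, was at 5.58, 6.40 and 4.95 CPM, against 1.87, 1.88 and 2.19 CPM in w1118 (1.51 ± 0.16, adjusted p = 0.00025). Of 17 hemocyte genes 4 were higher and 3 lower, and 4 and 4 without ez731-labelled R1: NimC1, a phagocytosis receptor of plasmatocytes, was at 31.3, 39.0 and 37.2 CPM, against 15.8, 15 and 12.4 CPM in w1118 (1.32 ± 0.12, adjusted p = 0.00012). Of 14 metal genes 1 was higher and 4 lower, and 3 and 4 without ez731-labelled R1, with the metallothionein gene MtnA at 430, 470 and 521 CPM, against 692, 643 and 609 CPM in w1118 (-0.45 ± 0.08, adjusted p = 0.0034).

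Of 33 maternal and germline genes 6 were higher and 2 lower, and 5 and 7 without R1; higher calls numbered 2 without w1118 R2 and 3 without w1118 R1 or ez731-labelled R2. orb, an oocyte RNA-binding protein gene, was at 18.1, 17.1 and 14.3 CPM, against 8.90, 7.58 and 10.3 CPM in w1118 (0.89 ± 0.14, adjusted p = 0.0015). Of 15 genes listed as examples of isoform choice, 5 were higher and 1 lower, and 6 and 2 without R1. The study's text does not name Nrg, Tm1, Khc-73 and dnt of this list. Those it names were picked mostly on long-read isoforms rather than on gene counts of embryos, and the list is not independent evidence of a direction. On chromosome 4, 20 of 92 tested genes were higher and 6 lower (21.7 and 6.52%), against 18.8 and 19.8% of all genes. Of 13 eye pigment genes 2 were higher (w and pr) and 2 lower, with changes of v and car of -0.49 and -0.37; without R1 pr did not pass (adjusted p = 0.055), which left 1 higher and 2 lower.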
